A study of Mus musculus with 8 samples.

Results

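The genes described here build the protein coat of the lipid droplet or release fatty acids from it. A set of 9 symbols was looked up by name (Plin1, Plin2, Plin3, Plin4, Cidec, Lipe, Pnpla2, Mgll and G0s2) in the authors' deposited table of cluster markers. Of these, 8 had at least 1 entry, with 53 of the 13337 entries and 8 of the 3903 gene symbols in the table. Plin3 had no entry. The cells were preadipocytes from the inguinal white fat of C57BL/6 mice, either wild type (WT) or lacking both Hmgn1 and Hmgn2 (DKO, Hmgn1-/- and Hmgn2-/-), grown on collagen. They were sampled at day 0 or at day 6 of an induction towards brown-like adipocytes with insulin, dexamethasone, IBMX, T3 and rosiglitazone, followed by insulin and T3 alone. The 8 samples formed 4 groups of 2, by genotype and day. The table pools the cells of the 8 samples in 12 clusters numbered 0 to 11, so the values below have no replicates, and neither the genotypes nor the days could be compared.

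A lipid droplet is a core of triglyceride under a single layer of phospholipid, and its coat decides which enzymes reach the core. Perilipin 1, the main coat protein of fat cells, holds lipolysis back at rest. When cAMP activates protein kinase A, perilipin 1 releases ABHD5, which then activates the triglyceride lipase ATGL. ATGL, hormone-sensitive lipase and monoglyceride lipase act in sequence and free a fatty acid at each step. Rosiglitazone, an agent of the induction medium, activates PPARγ, the nuclear receptor that drives many of these genes in fat cells.

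The measurement used was detection, the percent of cells in which at least 1 transcript of a gene was counted. The authors deposited it for the cells of each cluster and for all other cells. Detection is not a level of expression, and it depends on how many transcripts were read per cell, which is unknown here. A gene has an entry for a cluster only where it passed the authors' minimums for that cluster, so an absent entry is not a value of 0. The clusters were made from the expression of the same cells, and no difference between them was tested. An entry was called higher where detection in the cluster was at least 1.5 times that in all other cells, and lower where it was at most the inverse of this ratio.

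Plin1 encodes perilipin 1 (chromosome 7, 79720218 to 79732903, minus strand, mm10, protein-coding) and had entries in 10 clusters. Clusters 11, 8 and 6 showed it in 99.8%, 50.6% and 45.5% of their cells. In clusters 4 and 2 it was 29.3% and 27.8%, against 14.3% and 14.1% of all other cells. In clusters 0, 1, 3, 5 and 10, only 0.6% to 1.9% of cells had it. Plin1 therefore divided its 10 clusters into 5 that were called higher and 5 that were called lower, with none between. Its detection over all cells was 15.7%. The 5 clusters called higher held 36.6% of all cells and 89.5% of the cells with Plin1 detected. Over clusters 7 and 9, which had no entry, its mean detection was 8.16% (7.11% to 8.91%, the range allowed by the rounding of the deposited fractions and by the alternative cluster shares).

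**Figure D1:**
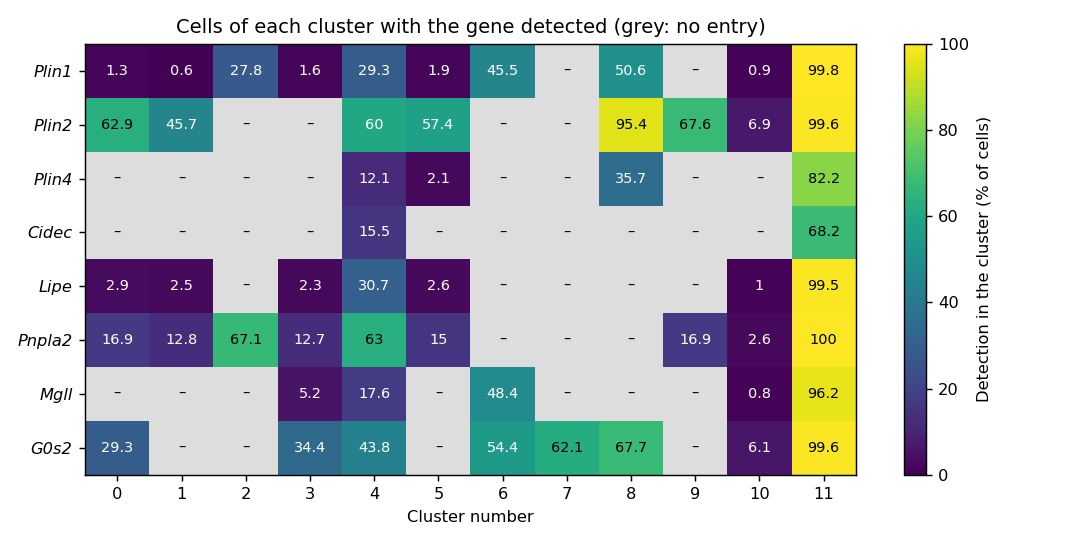
Percent of the cells of each cluster (columns, cluster numbers 0 to 11) in which each of the 8 genes (rows) was detected, printed in each field, with grey fields where the gene had no entry. Detection in cluster 11 ran from 68.2% for Cidec to 100% for Pnpla2 and was the highest of each row, while Plin2 stayed above 45% in every listed cluster except cluster 10.

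Lipe encodes hormone-sensitive lipase (chromosome 7, 25379527 to 25398710, minus strand), which mainly cleaves diglycerides in fat cells. Its transcripts were found in 99.5% of cluster 11 cells, compared with 15.5% of the rest, and in 30.7% of cluster 4 cells, compared with 15.3%. In clusters 0, 1, 3, 5 and 10 its detection was 2.9%, 2.5%, 2.3%, 2.6% and 1.0%. These are the clusters in which Plin1 was low as well. Over all cells, Lipe was detected in 16.8%. In the 5 clusters without an entry (2, 6, 7, 8 and 9) the mean detection was 29.2% (28.9% to 29.4%), above that of all cells, though no value is given for any single one of them.

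Of the genes with an entry in all 7 clusters where Lipe had one, Plin1 was the gene whose detection was most like it. The Pearson correlation of their detection over these 7 clusters was 0.9998, with 50 genes ranked. Gpd1, which makes glycerol 3-phosphate, followed with 0.9993, and Arxes1 with 0.994. Without cluster 11 Gpd1, at 0.9992, passed Plin1, at 0.9984, so the order of these genes rests on cluster 11. In clusters 0, 1, 3, 5 and 10 both Plin1 (0.6% to 1.9%) and Lipe (1.0% to 2.9%) were detected in few cells. Their correlation is thus set mainly by clusters 4 and 11. Likeness could not be compared in clusters 2, 6 and 8, where Plin1 had 27.8% to 50.6% and Lipe had no entry. These correlations describe clusters that share their cells and samples and carry no p-value. The windows before the starts of Plin1 and Lipe are shown because both are members and were alike in detection over these 7 clusters. The window of Plin2, which was detected far more broadly, is given for comparison. Each is the 250 bases before a RefSeq start (GRCm38.p6, minus strand), written 5′ to 3′, with motif matches in capitals. They lie at chr7:79732777-79733026 for Plin1, chr7:25390113-25390362 for Lipe and chr4:86670060-86670309 for Plin2.
Plin1: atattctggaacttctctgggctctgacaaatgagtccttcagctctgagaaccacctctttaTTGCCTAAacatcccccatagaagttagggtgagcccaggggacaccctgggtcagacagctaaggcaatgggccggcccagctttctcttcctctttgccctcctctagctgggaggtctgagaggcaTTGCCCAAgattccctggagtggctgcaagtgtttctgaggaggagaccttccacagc
Lipe: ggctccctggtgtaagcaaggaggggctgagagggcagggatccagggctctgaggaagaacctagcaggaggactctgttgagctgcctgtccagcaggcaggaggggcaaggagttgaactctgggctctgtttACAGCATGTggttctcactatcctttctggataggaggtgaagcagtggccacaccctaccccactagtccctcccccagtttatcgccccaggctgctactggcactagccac
Plin2: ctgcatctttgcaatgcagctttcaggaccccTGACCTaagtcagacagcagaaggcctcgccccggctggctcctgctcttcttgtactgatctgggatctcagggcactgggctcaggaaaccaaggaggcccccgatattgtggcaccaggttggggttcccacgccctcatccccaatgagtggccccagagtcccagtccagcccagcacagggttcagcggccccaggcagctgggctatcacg

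Motifs were searched on both strands in the 12 such windows of the 9 genes. The Plin1 window holds 2 matches to a C/EBP-type motif, TTGCNNAA, that begin 187 and 58 bases before the start. The Lipe window, which belongs to the downstream of its 2 starts, holds 1 match to a glucocorticoid receptor motif, ACANNNTGT, at 114 bases. The Plin2 window holds 1 match to the nuclear receptor element AGGTCA, at 218 bases and on the opposite strand. The C/EBP-type motif was in 2 of the 12 windows and in 9.56% of all 32851 windows of the same length, the receptor motif in 1 and in 5.84%, and the nuclear receptor element in 1 and in 14%. AGGTCANAGGTCA, the repeat of that element bound by PPARγ with RXR, was in 0 of the 12 windows and in 0.0335% of all, and the cAMP response element TGACGTCA in 0 and in 1.55%. The C/EBP-type motif was also in 1 of the 2 windows of Cidec. The other 8 windows held no match. A match is only a run of letters, and none of these windows was measured here.

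Plin2 encodes perilipin 2 (chromosome 4, 86648386 to 86670060, minus strand), the coat protein of small droplets in many cell types. Its detection over all cells, 62.2%, was the broadest of the 8 genes. Clusters 11 and 8 reached 99.6% and 95.4%, followed by 67.6%, 62.9% and 60% for clusters 9, 0 and 4. Clusters 5 and 1 had 57.4% and 45.7%. Of its 8 entries, 5 were called neither higher nor lower, the most of any of these genes. Only cluster 10 was called lower, with 6.9% against 64.0% of all other cells. Over the 4 clusters without an entry (2, 3, 6 and 7) the mean was 67.1% (66.8% to 67.3%). Plin2 was thus present in most cells of clusters 0 and 5, in which Plin1 was detected in 1.3% and 1.9%.

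Plin4 encodes perilipin 4 (chromosome 17, 56100591 to 56109803, minus strand), a coat protein with a long repeat region that is abundant in white fat. Cluster 11 had 82.2% against 8.8% of all other cells, and cluster 8 had 35.7% against 8.3%. Cluster 4 had 12.1% against 9.7%, and cluster 5 had 2.1% against 10.7%. Its order of clusters, 11, 8, 4 and 5, was that of Plin1 and of Plin2 over the same 4 clusters. Cidec encodes a protein that joins droplets and moves lipid into the larger droplet (chromosome 6, 113424634 to 113435760, minus strand). It had 2 entries, with 68.2% in cluster 11 against 5.7%, and 15.5% in cluster 4 against 5.7%. Both were called higher, and over the other 10 clusters together its mean detection was 4.64% (4.59% to 4.67%). The larger value of an entry was never under 10.1%, above the 6.64% of all cells with Cidec detected. Cidec could therefore be listed only where it was called higher. Cidec was the rarest of the 8 genes, at 6.64% of all cells, followed by Plin4 at 9.92%. For Plin3 (chromosome 17, 56277476 to 56292873, minus strand), a coat protein that moves between the cytosol and new droplets, no value is given by the table.

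Pnpla2 encodes ATGL, which starts the breakdown of triglyceride (chromosome 7, 141455198 to 141460743, plus strand). Clusters 11, 2 and 4 showed detection of 100%, 67.1% and 63.0%, against 34.1%, 30.7% and 32.1% outside each. Clusters 0 and 9 had 16.9% each, clusters 5, 1 and 3 had 15.0%, 12.8% and 12.7%, and cluster 10 had 2.6%. These 6 were called lower, and the 3 before them higher. Like Plin1, Pnpla2 had no entry between these groups, but it stayed above 12% in clusters 0, 1, 3 and 5, where Plin1 and Lipe were under 3%. Over clusters 6, 7 and 8, without an entry, the mean was 57.2% (56.7% to 57.8%). Detection over all cells was 35.1%.

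Mgll encodes monoglyceride lipase, which completes the sequence (chromosome 6, 88724412 to 88828360, plus strand). Cluster 11 had 96.2% against 16.9% of all other cells, and cluster 6 had 48.4% against 15.6%. Cluster 4 had 17.6% against 18.1%, cluster 3 had 5.2% against 19.6% and cluster 10 had 0.8% against 18.7%. Cluster 4, in which ATGL and hormone-sensitive lipase were called higher, was thus called neither for the enzyme of the last step. Most entries of cluster 4 were detected in fewer cells inside it than outside. Their median ratio was 0.171, and the 0.972 of Mgll was well above it. Mgll was detected in 18.1% of all cells.

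G0s2 encodes a small protein that binds ATGL and inhibits it (chromosome 1, 193272161 to 193273217, minus strand). It had 8 entries and was found in 43.8% of all cells. Clusters 11, 8, 7, 6 and 4 had 99.6%, 67.7%, 62.1%, 54.4% and 43.8%. Clusters 3, 0 and 10 followed with 34.4%, 29.3% and 6.1%. Only clusters 11 and 8 were called higher, and clusters 0 and 10 lower. In cluster 4 detection inside and outside the cluster was the same, 43.8%, while that of its target Pnpla2 was 1.96 times as high inside. The median ratio of all entries of cluster 4 was 0.171, so equal detection was high for an entry of this cluster. Compared with Plin1 over clusters 0 and 3 (1.3% and 1.6%), the inhibitor was detected widely.

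Of the 53 entries, 20 were called higher and 22 lower, against 22.4% and 33.3% of all 13337 entries, and 11 were neither. The clusters differed in which way their entries went. All 8 genes were called higher in cluster 11, where 29.2% of the 2487 entries were, and their median ratio of detection was 6.06 against 1.09 for all entries there. Ratios ran from 1.62 for Plin2 to 12 for Cidec. Detection cannot exceed 100%, which limited the ratios of genes found widely elsewhere, such as Plin2 (99.6% against 61.6%) and Pnpla2 (100% against 34.1%). By the difference of detection, Plin1 (85.4 percentage points) and Lipe (84.0 points) ranked 2 and 3 among these 2487 entries and Mgll (79.3 points) ranked 9. The entry before Plin1 was Gpat3 (88.0 points), an acyltransferase that starts the making of glycerolipids. Because an entry was listed only after passing the authors' minimums, a listed gene had to differ in some way, and these counts describe the entries rather than test them. For Cidec, only a call of higher was possible.

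**Figure D2:**
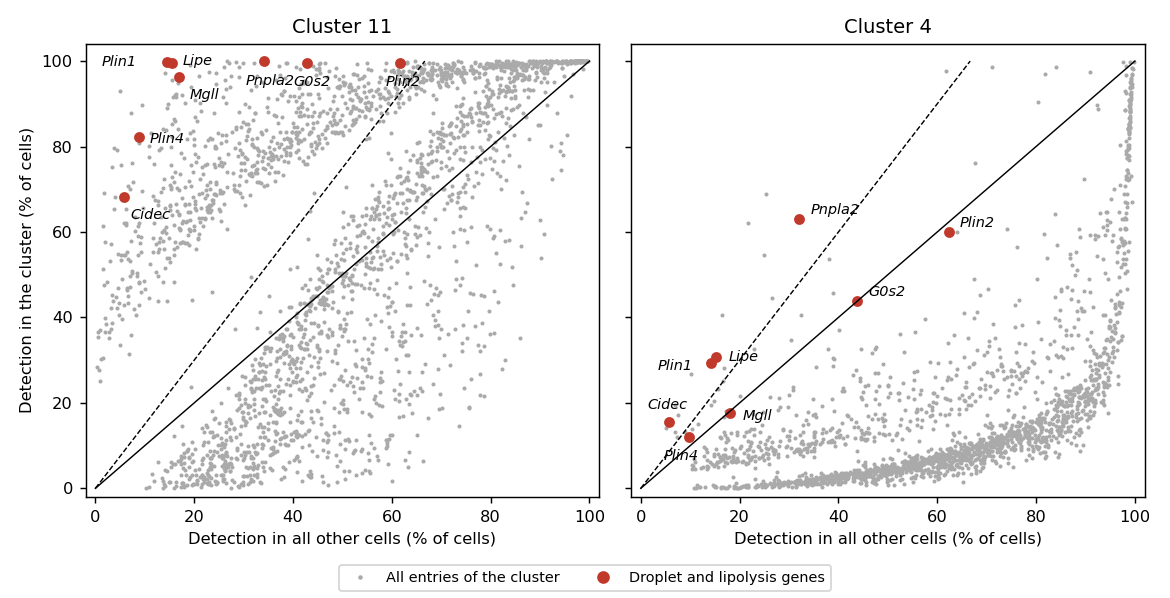
Percent of cells with a gene detected in cluster 11 (left) or cluster 4 (right), on the vertical axes, against the percent in all other cells, on the horizontal axes, with a grey point for each entry of the cluster and red points for the 8 genes. The solid line marks equal detection and the dashed line a ratio of 1.5. All 8 genes lie above the dashed line in cluster 11, and in cluster 4 they lie on, near or above the solid line, far from most entries of that cluster.

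The 8 genes were not detected equally in cluster 11. For Pnpla2, Plin1, Plin2, G0s2 and Lipe it was between 99.5% and 100%, for Mgll 96.2%, for Plin4 82.2% and for Cidec 68.2%. The differences among the leading 5 were at most 0.5 percentage points, where the table is rounded to 0.1 points, and no interval could be given because the number of cells is unknown. Set beside cluster 8, Plin2 hardly differed (99.6% against 95.4%), while Plin1 (99.8% against 50.6%) and Plin4 (82.2% against 35.7%) were 1.97 and 2.30 times as high in cluster 11.

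In cluster 8, the 4 listed genes (Plin1, Plin2, Plin4 and G0s2) were all called higher, against 17.1% of its entries. Both listed genes were called higher in cluster 2 (Plin1 and Pnpla2, against 13.8% of its entries) and 2 of 3 in cluster 6 (Plin1 and Mgll but not G0s2, against 37.1%). Clusters 0, 1, 3 and 5 went the other way. There, 4 of 5, 3 of 4, 4 of 5 and 4 of 5 listed genes were called lower, against 13.1%, 17.6%, 23.2% and 4.73% of all their entries. When only entries with at least 25% detection on either side were kept, these counts were 2, 1, 1 and 1. The exceptions were Plin2 in clusters 0, 1 and 5 and G0s2 in cluster 3. Cluster 7 had 1 entry, G0s2, called neither with a ratio of 1.46, and of 2 in cluster 9 Pnpla2 was called lower, against 1.39% of its 938 entries. In cluster 10 all 6 listed genes were called lower, but so were 96.8% of its entries.

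Cluster 4 stood apart from the other clusters in its detection. The median entry of cluster 4 was detected in 10.8% of its cells and in 63.0% of all others, and 1.98% of its 2072 entries were detected in more cells inside than outside. Cluster 10 was alike in this respect, with medians of 8.1% and 62.4%. Among the 8 genes, the inside value exceeded the outside value for 5 (Plin1, Plin4, Cidec, Lipe and Pnpla2), and 4 were called higher (these without Plin4), against 0.869% of the entries. For Cidec, no other call was possible. The median ratio of the 8 genes was 1.6, against 0.171 for all entries of cluster 4, and the lowest, 0.962 for Plin2, was above that median. Pnpla2, with 30.9 points, ranked 4 by the difference of detection. The part of the low detection of cluster 4 in these values was not tested.

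Clusters 4 and 11 could be set side by side for all 8 genes. Detection in cluster 11 was higher for each, by 37.0 points for Pnpla2 to 78.6 points for Mgll. When cells outside both clusters were taken for comparison, the same counts were called higher, 4 in cluster 4 and 8 in cluster 11. Against these cells, Cidec was detected 3.34 times as often in cluster 4 and 14.7 times as often in cluster 11, and Pnpla2 2.03 and 3.23 times. G0s2 and Mgll, with 1.02 and 1.05 in cluster 4, were close to those cells.

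The shares of the clusters, solved from the detection values, gave the part of the detecting cells that each held. Cluster 11 held 1.5% of all cells. It held 15.4% of the cells with Cidec detected (15.0% to 16.2%, the range over rounding and alternative shares), 12.5% of those with Plin4, 9.55% with Plin1, 8.91% with Lipe and 7.98% with Mgll. For Pnpla2, G0s2 and Plin2 the part was 4.28%, 3.42% and 2.4%. Cluster 4, with 9.59% of all cells, held 22.4% of the cells with Cidec detected, 17.9% with Plin1, 17.6% with Lipe and 17.2% with Pnpla2. For Plin4 it held 11.7%, and for Plin2, Mgll and G0s2 between 9.26% and 9.59%, which was its share of all cells or slightly less. The greater part of the cells with any of these transcripts thus lay outside these clusters. Among all cells outside clusters 4 and 11, 12.8% had Plin1 and 61.8% had Plin2 detected.

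**Figure D3:**
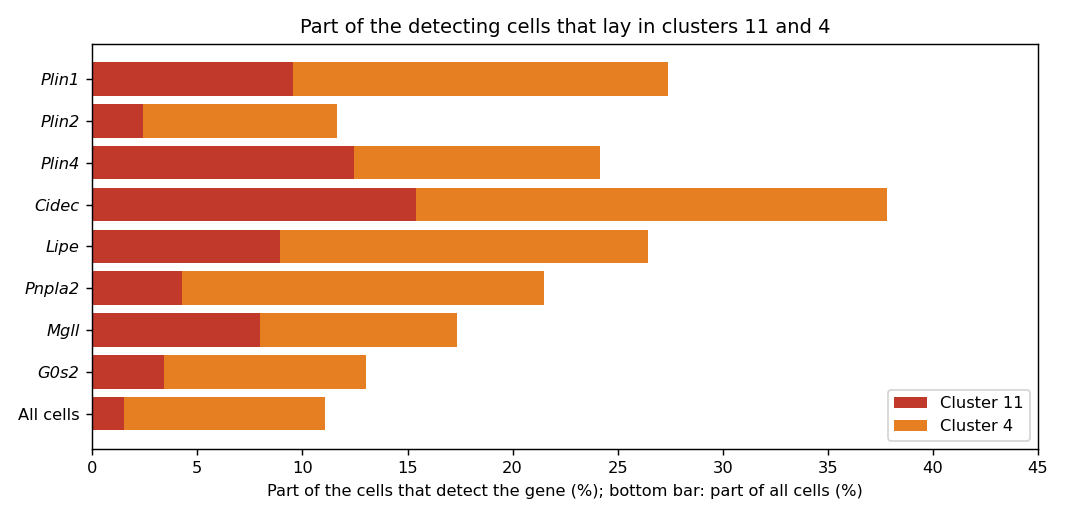
Part, in percent, of the cells with each gene detected that lay in cluster 11 (red) and cluster 4 (orange), as stacked bars from 0, with the shares of both clusters among all cells in the bottom bar. Cluster 11 held 15.4% of the cells with Cidec detected and 2.4% of those with Plin2, against 1.5% of all cells.

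Marker genes of cell types were read beside these values. Of 10 adipocyte genes, 9 were listed in cluster 11, 7 of them called higher and 0 lower, against 29.2% of its entries higher. In cluster 4 also 9 were listed, with 4 higher and 0 lower, against 0.869% of its entries higher. The adipocyte and lipolysis lists share Fabp4 and Lpl. The adipocyte and triglyceride assembly lists share Acsl1, which was called higher in clusters 4 and 11 and is counted in both. In cluster 8, 5 of 7 listed adipocyte genes were called higher, against 17.1% of its entries. In cluster 10 all 8 listed were lower, which with 96.8% of its entries lower says nothing particular about them. Of 8 preadipocyte genes, 5 were listed in cluster 11, with 3 lower and 0 higher, against 25.2% of its entries lower. The 5 listed in cluster 4 were all lower, which with 91.1% of its entries lower says nothing particular about them. Clusters 5, 6 and 9, in which 7 of 7, 8 of 8 and 8 of 8 listed proliferation genes were called higher (against 43.6%, 37.1% and 38.6% of all entries), differed for the lipid genes, with Plin1 at 1.9% in cluster 5 and 45.5% in cluster 6. Both genes the study used for differentiating cells were called higher in clusters 2, 6 and 8 (against 13.8%, 37.1% and 17.1% of all entries), and so was Plin1. Of 11 thermogenic genes, 4 were listed in cluster 11 (Cox7a1, Ebf2, Elovl3 and Ppargc1a). All 4 were called higher, against 29.2% of its entries. Elovl3 (36.7% against 2.8%) and Ppargc1a (47.5% against 1.8%) were so rare elsewhere that they could be listed only as higher. Ebf2 was also called higher in cluster 8 (51.5% against 24.2%). Ucp1 and Cidea, which the study used for beige adipocytes, had no entry in any cluster, so no value is given for them. None of the 8 immune, 6 endothelial or 5 glial genes had an entry, but the authors had removed cells of these types before clustering and an absent entry is not a 0, so this says nothing about which cells remained. Of 6 muscle and mural genes 1, the actin gene Acta2, was listed. It was called lower in clusters 2, 4, 6, 8 and 11 (4.2% to 23.2%), the 5 clusters in which Plin1 was called higher. Of all entries there, 22.2%, 91.1%, 11.6%, 33.8% and 25.2% were lower, so the call in cluster 4 says little. Acta2 was higher in clusters 0, 1, 5 and 9 (97.0%, 93.1%, 98.1% and 97.7%), against 23.8%, 26.6%, 43.6% and 38.6% of all entries. In cluster 3, where Plin1 was lower, Acta2 was called neither (81.4% against 59.5%), and in cluster 10 it had no entry. Free RNA in droplets can place a transcript in cells that do not make it. The lowest detection of Plin1 was 0.6%, in cluster 1. Each sample was captured separately, and the pooled values do not show which captures the cells of a cluster came from. That value therefore need not hold for the other clusters, and the part of free RNA in the higher values was not tested.

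Other genes of the pathway were counted in cluster 11 from lists, where 29.2% of all 2487 entries were called higher and 25.2% lower. The larger value of an entry was never under 10.1%. Plin5, Adrb3 and Gpat3, found in 2.7%, 3.1% and 5.0% of all other cells, could therefore be listed there only as higher. The counts describe the entries and test nothing. Of 19 further coat and droplet assembly genes, 4 were listed and all 4 were called higher. These were Aifm2 (95.5% against 15.6%), Fitm2, which helps droplets bud from the endoplasmic reticulum (91.5% against 16.4%), the seipin gene Bscl2 (98.2% against 44.7%) and Plin5, the perilipin of oxidative tissues (35.3% against 2.7%). Of 26 symbols for lipolysis and its control, 12 were listed, 9 higher and 0 lower. Pde3b, the phosphodiesterase through which insulin restrains lipolysis, had the largest difference (99.1% against 19.1%), followed by the protein kinase A subunit gene Prkar2b (100% against 42.5%) and the glycerol kinase gene Gk (68.5% against 11.7%). The smallest were Fabp4, a carrier of fatty acids (100% against 73.3%), Prkar1a, another subunit of the kinase (89.2% against 78.8%), and the lipoprotein lipase gene Lpl (100% against 92.0%), where detection elsewhere left little room. Of 19 genes of triglyceride assembly, 10 were listed and all 10 were called higher, from Gpat3 (93.0% against 5.0%), Lpin1 (92.1% against 16.1%) and Acsl1 (99.5% against 27.1%) to Gpam (80.2% against 22.2%), Fasn (93.0% against 38.2%) and Scd1 (100% against 64.6%).

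In cluster 4, 91.1% of all entries were called lower and 0.869% higher. Of the further coat and assembly genes 6 were listed there, with 5 lower and 0 higher. The part called lower is near that over all entries. Of the lipolysis genes 10 were listed, with 5 lower and 0 higher. Abhd5, whose protein activates ATGL, was detected in 29.1% of cluster 4 against 49.1% elsewhere, and in 99.5% of cluster 11 against 46.4%. Bscl2 had 19.7% against 48.3% in cluster 4. The ratios of both, 0.593 and 0.408, were above the 0.171 of the median entry there. Of the assembly genes for triglyceride 9 were listed, 3 higher (Acsl1, Gpd1 and Scd1) and 4 lower. Abhd5 and the cluster 4 value of Bscl2 were picked after the values had been seen.

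Genes most like the others in their detection over clusters were ranked among genes listed wherever the member was. For Plin1, over 10 clusters and 28 genes, these were Car3, a carbonic anhydrase of fat and muscle (Pearson r = 0.917), the fatty acid carrier gene Cd36 (0.902) and mt-Nd6 (0.802). For Pnpla2, over 9 clusters and 26 genes, Car3 (0.991) and Cd36 (0.99) led again, followed by AY036118 (0.929). Mgll, over 5 clusters and 106 genes, was most like Retn, which encodes resistin (0.999), Arxes1 (0.998) and Pde3b (0.996). G0s2 had weaker partners over 8 clusters and 24 genes, Fabp4 (0.829), Car3 (0.752) and Zbtb16 (0.739). For Plin2, over 8 clusters and 57 genes, the leading genes were Btg1 (0.968), mt-Nd6 (0.94) and Dlc1 (0.928), none of them a gene of the lists above. Without cluster 11 the correlations of Plin1 with Car3 and Cd36 were 0.97 and 0.978, and that of G0s2 with Fabp4 was 0.924, while those of G0s2 with Car3 and Zbtb16 were 0.605 and 0.625.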

How the data were processed

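Single-cell RNA was captured with 10x 3′ chemistry from 8 samples in 4 groups of 2, grouped by their labels. The authors used Cell Ranger 6.0.0 and mm10 (submitters' notes), equalized depth between captures, filtered and clustered cells in Seurat after leaving out immune, glial and endothelial ones, and compared each cluster with the rest by MAST. No doublet removal is described. The deposited values used were the fractions of cells with a gene detected inside and outside each cluster, printed as percents. The larger of the pair was never under 10.1%. The fold changes and p-values deposited beside them are the authors' own comparisons and were not used. The values are pooled over samples, so no test was run, and depth and cell numbers are unknown.

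Values were computed in Python 3.11.15 (scipy 1.17.1, pandas 2.3.3, numpy 2.4.6) and drawn with matplotlib 3.10.9. Cluster shares were solved by least squares from the 10 genes listed for every cluster, as detection over all cells must be equal from each cluster. All 2687 genes with entries in 2 or more clusters met this to 0.2 percentage points, and the shares summed to 99.9%. The step was tested on simulated data. A spreadsheet had turned 7 symbols, in 35 entries, into dates. They were kept in counts over entries and left out of the solving and ranking steps. Positions are from GENCODE M21 (GRCm38) and promoter windows from RefSeq, in which all 9 genes matched. Plin4 and G0s2 overlap Hdgfl2 and Lamb3 on the other strand, Lipe overlaps an antisense gene and Mgll overlaps 5 gene models. The use of strand in counting is not given in the sources used here.

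The genes and lists were chosen with earlier results of these data known, and the motifs and cluster pairs after the values were seen. Named genes were all members, per pathway list the 3 with the largest and the 3 with the smallest difference in cluster 11, and, for members listed in at least 5 clusters, the 3 genes with the highest Pearson correlation of detection over exactly those clusters.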

Additional observations from a re-analysis of the deposited data

How the results depend on the processing

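The count of entries called lower depended on the filter on detection. It was 9 in place of 22 when only entries with at least 25% detection inside or outside the cluster were kept, since that filter leaves out entries of the rarer genes, with 2 rather than 4 lower in cluster 0, 1 rather than 3 in cluster 1, 1 rather than 4 in clusters 3 and 5, and 3 rather than 6 in cluster 10. Other rules were a ratio of 2, any difference, a difference of 10 percentage points or an odds ratio of 2. They kept the counts of entries called higher and lower within 1.5 times, but the shares over all entries moved. In this order, 15, 25, 21 and 21 of the 53 entries were called higher, against 12.9%, 54.0%, 40.0% and 45.2% of all entries. Lower were 21, 27, 23 and 23, against 28.6%, 45.9%, 37.4% and 34.8%. Except with the ratio of 2, the part called higher was then not above that of all entries. With a ratio of 2, however, 2 genes rather than 4 were called higher in cluster 8 and 1 rather than 2 in cluster 2, and taking any difference called 2 rather than 0 lower in cluster 4. In cluster 7, G0s2 was called higher with any difference, 10 percentage points or the odds ratio. Any difference also called 1 gene rather than 0 higher in clusters 0 and 9. The totals also held on leaving out clusters 4 and 10, a choice added after the data had been seen, which left 16 higher and 16 lower, against 28.1% and 17.7% of all entries of the other clusters. Cluster 11 kept the highest detection for all 8 genes when clusters were ranked by ratio. Detection over all cells moved by at most 0.021 percentage points with other shares. No paired analysis was possible because every deposited value is pooled over the samples, and for the same reason no sample could be left out. Depth limits each value in a way that could not be measured.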

Other observations

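Cluster 4 had only 18 entries called higher, 4 of which were among the 8 genes described above. The other 14 were looked at after their values had been seen. Car3 had a detection of 62.1% inside and 21.7% outside cluster 4, Cd36 of 69.0% and 25.3%, and Scd1 of 97.7% and 61.7%. The adipokine gene Adipoq had 40.5% against 16.4%, and Cdo1, an enzyme of cysteine breakdown, 54.5% against 24.9%. Acsl1, Gpd1, Ephx2, Nabp1, Thrsp, Slc36a2, Adig, Pdk4 and Lcn2 were the remaining 9, with detection in cluster 4 between 12.1% for Pdk4 and 44.5% for Acsl1.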
